A study of Arabidopsis thaliana with 15 samples.

Results

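Roots of Arabidopsis thaliana seedlings held for 2 h in Rose Bengal together with hydrogen peroxide (RBH) were compared with roots held in water, across all genes measured. The RBH solution is labelled as 5 mM H2O2 with 10 µM of a compound written MRB, which no label explains, and the series' own description names the dye as RB. All seedlings were wild type of the Columbia-0 accession, 7 days old, grown at 21 °C with 16 h of light a day on MS medium with 1% sucrose. Each replicate pooled 30 to 50 seedlings, and roots were cut from shoots after the treatment. Transcripts were counted at their 3′ ends by MARS-seq. The comparison rests on 6 of the 15 libraries of the series, 3 of RBH and 3 of water. A further 3 libraries of roots in 10 µM RB alone for 2 h (RB 2 h) show where the combination differed from the dye at the same time. The water libraries are labelled with an exposure of 1 h and titled 0, so treatment and time in solution changed together. Peroxide alone was not analysed here, and neither the labels nor the series text says how the solutions were lit.

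Rose Bengal is a dye that, when lit, hands its energy to oxygen and forms singlet oxygen, a short-lived form that oxidises lipids, proteins and pigments close to where it arises. Hydrogen peroxide lives longer, crosses membranes through aquaporins and is removed by catalases and by peroxidases that draw on ascorbate or on thiols. Plants answer such oxidants with chaperones that hold damaged proteins, with glutathione transferases and glycosyltransferases that tag reactive molecules, and with transcription factors of the ERF, WRKY and ZAT families.

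The libraries held 1500423, 1705914 and 6230975 counts in RBH, 1032423, 1927894 and 2305295 in RB 2 h, and 897728, 1423360 and 1897364 in water. Levels are in CPM, a scale on which libraries of unequal depth share a total, where a single count was worth 0.176 to 0.767 CPM in RBH libraries and 0.570 to 1.19 CPM in water libraries. RBH replicate c stood apart from its fellow replicates in depth and in marker levels. Its 5 root hair markers summed to 2.64 CPM, against 13.03 and 29.06 CPM in RBH replicates a and b, and its 20 shoot green tissue markers to 1254 CPM, against 652 and 737 CPM. In water the green markers summed to 642, 646 and 934 CPM. The source of these counts was not tested. Counts of the endodermis markers, which define the inner root layer that carries the Casparian strip, summed to 976, 1365 and 955 CPM in RBH and 1122, 1087 and 1067 CPM in water. The 3 markers of the whole root, which are PYK10 and the aquaporins TIP2;3 and PIP1;5, summed to 357, 368 and 170 CPM in RBH and 995, 1188 and 926 CPM in water. Markers of the labelled organ were thus detected in all 6 libraries, at levels that differed between RBH and water.

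Of the 9891 genes tested, 2671 (27.0%) passed an adjusted p under 0.05 between RBH and water by edgeR's quasi-likelihood test with Benjamini-Hochberg adjustment. They were 1426 genes higher in RBH (14.4% of those tested) and 1245 lower (12.6%). Without RBH replicate c, 1226 were higher and 975 lower. Among them, 1055 rose and 817 fell by an estimated 2-fold or more, and 263 rose and 95 fell by 8-fold or more. The median log2 fold change over all genes tested was 0.04. The genes that rose took 24.5, 28.0 and 26.9% of all counts in the RBH libraries and 9.41, 10.8 and 10.2% in the water libraries. Those that fell took 12.1, 12.4 and 10.5% in RBH and 28.0, 25.7 and 27.0% in water. In the authors' deposited table, 994 genes are marked as higher in RBH and 749 as lower, at an adjusted p of at most 0.05 and a change of at least 2-fold. When tested against a change of 1.5-fold instead of no change, 835 genes were higher and 623 lower. Gene lists by pathway, family or cell type, 53 in all, take 653 of the tested genes. In the 24 lists with no gene called lower, 9 of 292 entries tested had an unadjusted p under 0.05 in that direction by edgeR. Entries count a gene once in each list that holds it. DESeq2 called 0 of the 292 lower after adjustment. In the 11 lists with no gene called higher, 3 of 84 entries had such a p, and DESeq2 called 0.

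**Figure D1:**
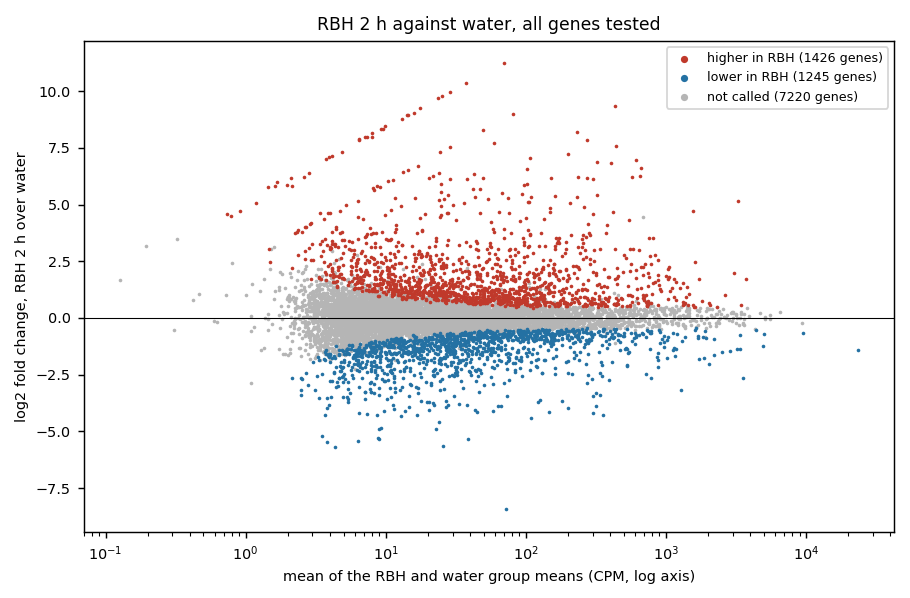
Each of the 9891 genes tested is a point, with the mean level over the libraries on the horizontal axis (CPM, log scale) and the log2 fold change of RBH over water on the vertical axis; red marks the 1426 genes higher in RBH and blue the 1245 lower. The largest changes, such as those of HSP23.6-MITO and NRT2:1, belong to genes that were close to 0 CPM in water or in RBH.

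The genes that moved furthest upward were nearly silent in water. GSTU12, a glutathione transferase of the plant-specific tau class, had 816, 987 and 809 CPM in RBH and 2.39, 1.49 and 0.570 CPM in water, a log2 fold change of 9.34 ± 0.46 (SE, adjusted p = 1.25e-12). GAD4, which makes the amino acid GABA from glutamate, had 649, 413 and 330 CPM in RBH against 1.19, 0.747 and 2.28 CPM in water, a log2 fold change of 8.20 ± 0.41 (adjusted p = 5.68e-13). TDR1, a transcription factor of the ERF family, had 220, 159 and 109 CPM in RBH and a single count in the water group. Its ratio of counts was 530, with a 95% exact interval of 95.02 to 20969. For each of these 3 genes RB 2 h lay between RBH and water, at 164 to 332 CPM for GSTU12, 20.0 to 33.2 CPM for GAD4 and 13.6 to 25.5 CPM for TDR1.

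Others of the 10 genes with the highest fold changes had no count in any water library, so that their folds are lower bounds, computed as if the water group had held 3 counts in all. HSP23.6-MITO, a small heat shock protein of mitochondria, was at least 197-fold higher in RBH, at 92.0, 166 and 159 CPM. LHT7, of a family of amino acid transporters, was at least 76.2-fold higher, and ATHSP22.0, a small heat shock protein of the endoplasmic reticulum, at least 70.7-fold. NHL25 was at least 34.4-fold higher, BGLU27, a member of the beta-glucosidase family, at least 20.4-fold, and both GSTU25 and the chloroplast small heat shock protein HSP21 at least 28.4-fold. The 35 genes called higher without a count in water include these 7. Their bounds pool the counts of each group, so deeper libraries weigh more. By library, GSTU25 had 52.1, 32.3 and 11.8 CPM in RBH, and HSP21 had 9.20, 26.5 and 23.3 CPM.

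At the other end stood NRT2:1, the main high-affinity nitrate transporter of roots, with 0.767, 0.646 and 0.176 CPM in RBH against 148, 149 and 137 CPM in water. The RBH group held 3 counts of it in all, a ratio of RBH to water of 0.00245 (95% exact interval 0.000503 to 0.00719). The other 9 genes with the lowest fold changes encode proteins of the cell wall or of root hairs. LRL3, a bHLH factor that promotes root hair growth, had 3.07, 3.88 and 0.705 CPM in RBH and 77.6, 79.9 and 68.4 CPM in water (log2 fold change -5.33 ± 0.42, adjusted p = 5.37e-10). PME2, a pectin methylesterase, had 2.30, 1.29 and 1.23 CPM in RBH and 43.0, 50.8 and 38.2 CPM in water (log2 fold change -4.88 ± 0.36, adjusted p = 2.70e-10). The remaining 7 were LRX1, EXPA7, RHS19, XTH14, the extensin genes EXT13 and HRGP1, and the laccase gene LAC7, with log2 fold changes between -4.91 and -4.05. Genes were admitted to this list, as to the list of the highest, only where the ranges of RBH and water did not overlap.

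**Figure D2:**
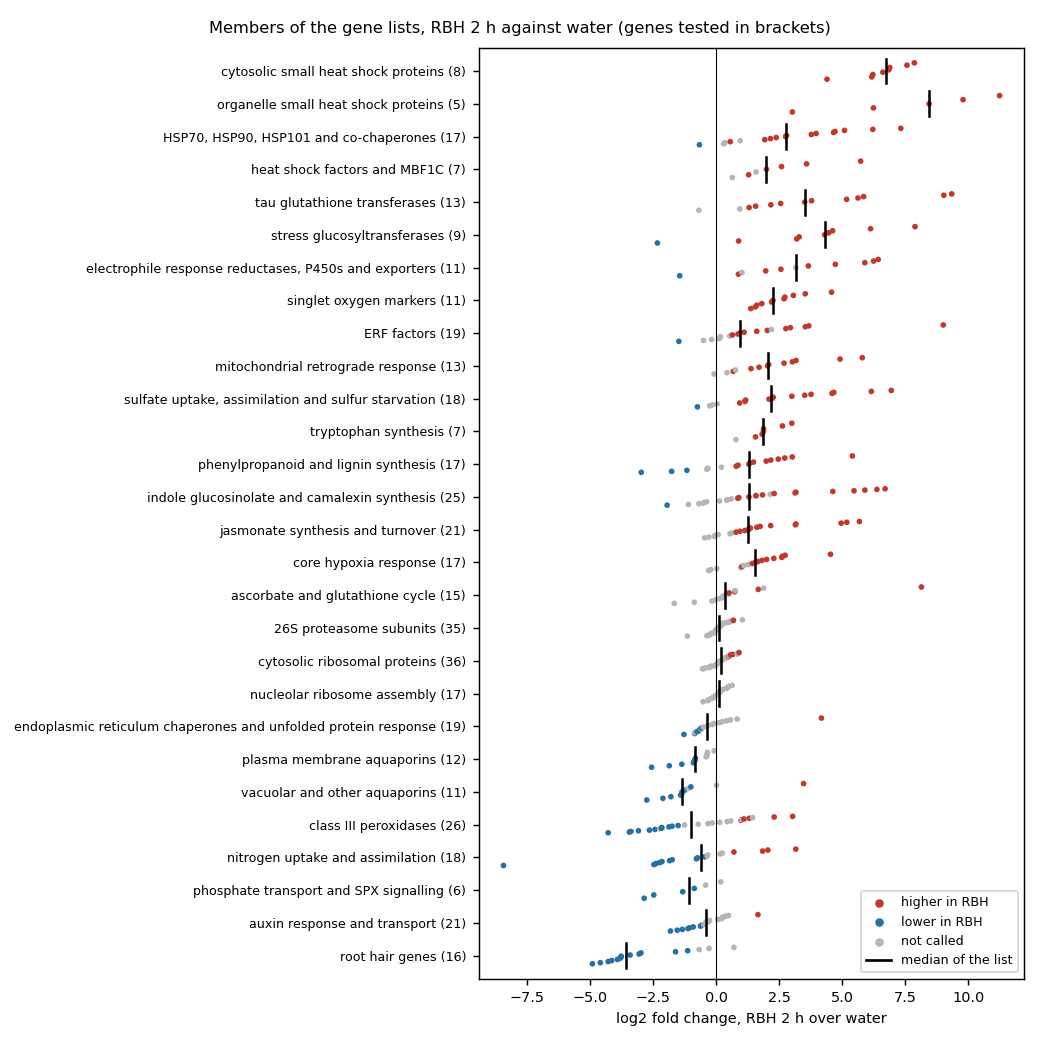
Each point is a gene tested, placed by its log2 fold change of RBH over water, in rows by gene list with the number tested in brackets; red points were higher in RBH, blue points lower, grey points did not pass, and the black bar is the median of the list. Small heat shock proteins (medians 6.73 and 8.45) lie furthest to the right and root hair genes (median -3.59) furthest to the left, while proteasome, ribosomal and nucleolar genes lie around 0.

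Heat shock genes rose together. All 8 cytosolic small heat shock proteins tested, out of 10 listed, were higher in RBH than in water, with a median log2 fold change of 6.73 against 0.04 over all genes. These proteins bind unfolding proteins and keep them from clumping. HSP17.4 had 1024, 1524 and 1389 CPM in RBH and 16.7, 11.2 and 13.1 CPM in water, a log2 fold change of 6.61 ± 0.27 (adjusted p = 2.82e-14). HSP17.6A had 675, 1059 and 912 CPM in RBH and 7.16, 1.49 and 5.70 CPM in water, a log2 fold change of 7.57 ± 0.36 (adjusted p = 3.95e-13). No RBH library came near the water range for either gene. The members of this family are similar in sequence, so reads of close copies may be shared among them.

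All 5 small heat shock proteins of organelles were also higher, 4 of them without a count in water. Their median log2 fold change is 8.45 as fitted and 4.83 with those 4 genes at their bounds. The weakest case was AT1G52560, with 8.43, 6.46 and 0.881 CPM in RBH, at least 3.99-fold higher than in water. With every library thinned to the smallest total, 3 of the 5 were called. AT5G51440 was the only member with counts in water, at 79.7, 164 and 166 CPM in RBH and 15.5, 17.2 and 17.7 CPM in water (log2 fold change 3.02 ± 0.30, adjusted p = 3.72e-08).

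Of 17 genes tested for the HSP70, HSP90 and HSP101 chaperones and their partners, 13 were higher in RBH and 1 lower, with a median log2 fold change of 2.75. Hsp70b, a stress-inducible HSP70 of the cytosol, had 320, 530 and 558 CPM in RBH and 3.58, 7.47 and 6.84 CPM in water (log2 fold change 6.21 ± 0.31, adjusted p = 3.95e-13). HSP101, which pulls proteins out of aggregates, had 195, 293 and 376 CPM in RBH and 10.7, 12.0 and 11.4 CPM in water (log2 fold change 4.66 ± 0.29, adjusted p = 1.82e-11). BAG6, an HSP70 partner, had 56.0, 79.4 and 75.6 CPM in RBH and 0, 3.74 and 1.71 CPM in water. The member that fell was HSC70-1, the constitutive cytosolic HSP70, with 8504, 6626 and 7006 CPM in RBH and 12087, 10974 and 12042 CPM in water (log2 fold change -0.67 ± 0.18, adjusted p = 0.00629). Heat shock chaperones as a whole took 1.41 to 1.64% of counts in RBH libraries, against 1.16 to 1.24% in water libraries.

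Among the transcriptional regulators of the heat response, 5 of 7 tested were higher and none lower, out of 13 listed. HSFA2, a heat shock factor that sustains acquired thermotolerance, had 12.3, 14.9 and 20.6 CPM in RBH and 1 count in the water group, a ratio of 71.9 (95% exact interval 12.7 to 2858). The coactivator MBF1C had 307, 517 and 666 CPM in RBH and 35.8, 44.8 and 42.7 CPM in water (log2 fold change 3.59 ± 0.26, adjusted p = 1.94e-10). HSF4, also known as HSFB1, and HSFB2A, which are class B factors, had log2 fold changes of 2.00 ± 0.19 and 2.59 ± 0.26. The fifth, AT-HSFA7B, had 9.97, 13.6 and 10.7 CPM in RBH against 3.58, 7.47 and 2.85 CPM in water (adjusted p = 0.0186). Its call was lost on thinning to the smallest library (adjusted p = 0.349) and without RBH replicate b (0.0579), water replicate a (0.0587) or water replicate c (0.145).

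**Figure D3:**
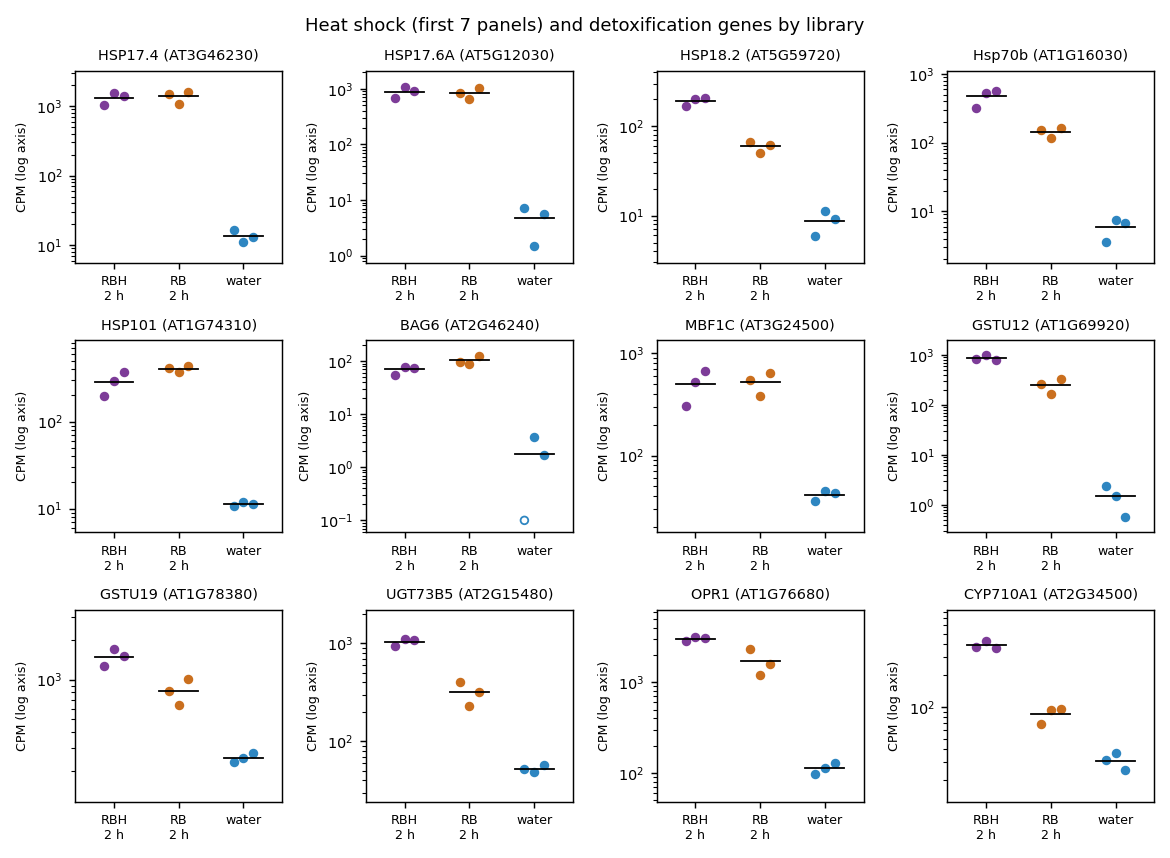
CPM (log axis) of 7 heat shock genes and 5 detoxification genes, with a point for each library of RBH 2 h, RB 2 h and water and a bar at each group's mean; an open circle drawn at 0.1 CPM is a library with no count. The RBH points lie above the water points in every panel. For HSP18.2, Hsp70b, GSTU12, GSTU19, UGT73B5, OPR1 and CYP710A1 they also lie above all those of RB 2 h.

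Detoxification genes formed the other large group that rose. Of 13 tau-class glutathione transferases tested, 11 were higher in RBH and none lower, with a median log2 fold change of 3.51, out of 24 listed. Without water replicate a, 1 was called lower. GSTU19 had 1269, 1706 and 1507 CPM in RBH and 234, 251 and 275 CPM in water (log2 fold change 2.56 ± 0.20, adjusted p = 4.68e-10). GSTU7 had 258, 291 and 360 CPM in RBH and 22.7, 26.1 and 29.6 CPM in water (log2 fold change 3.51 ± 0.26, adjusted p = 2.22e-10). GSTU13 had a smaller fold change, at 1716, 1888 and 1671 CPM in RBH and 578, 571 and 633 CPM in water (log2 fold change 1.57 ± 0.17, adjusted p = 1.52e-07). The ranges of RBH and water were apart for each of these 3. Tau-class genes lie in clusters of similar copies, so that their counts may share reads.

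Of the 7 phi-class glutathione transferases, 4 were higher and none lower. GSTF8, one of the 5 most abundant genes that rose, had 4777, 5276 and 4747 CPM in RBH and 1159, 1327 and 1227 CPM in water (log2 fold change 2.00 ± 0.17, adjusted p = 2.91e-09). GSTF3 had 91.2, 105 and 120 CPM in RBH and 1.19, 2.99 and 3.42 CPM in water (log2 fold change 5.23 ± 0.36, adjusted p = 9.08e-11). GSTF2 and GSTF6 rose with log2 fold changes of 1.07 ± 0.21 and 3.74 ± 0.76. GSTF7, GSTF9 and GSTF10 did not pass, with log2 fold changes of 1.82 ± 0.74, -0.42 ± 0.24 and 0.13 ± 0.62.

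Of 9 stress-related glycosyltransferases tested, which attach sugars to small molecules, 8 were higher and 1 lower, with a median log2 fold change of 4.30. UGT73B5 had 945, 1102 and 1084 CPM in RBH and 52.5, 48.6 and 57.0 CPM in water (log2 fold change 4.30 ± 0.25, adjusted p = 5.44e-12). UGT75B1 had 48.3, 54.9 and 65.9 CPM in RBH and 3 counts in the water group, a ratio of 80.2 (95% exact interval 27.3 to 390). The member that fell was UGT74F2, a salicylate glucosyltransferase, with 13.8, 17.4 and 10.0 CPM in RBH and 50.1, 72.5 and 73.0 CPM in water (log2 fold change -2.33 ± 0.27, adjusted p = 2.59e-07).

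Among 11 tested reductases, P450s and exporters known to answer electrophiles, 8 were higher and 1 lower. OPR1, a reductase of unsaturated carbonyl compounds, had 2879, 3145 and 3054 CPM in RBH and 96.7, 114 and 130 CPM in water (log2 fold change 4.73 ± 0.23, adjusted p = 3.95e-13). CYP81D8 had 39.1, 49.1 and 40.7 CPM in RBH and 2 counts in the water group, a ratio of 82.5 (95% exact interval 22.7 to 684). CYP710A1, a sterol desaturase that forms stigmasterol, had 375, 422 and 366 CPM in RBH and 31.0, 36.6 and 25.1 CPM in water (log2 fold change 3.66 ± 0.22, adjusted p = 1.29e-11). RBH and water ranges were apart for all 3. The member called lower was not called without RBH replicate b or c, or water replicate a or c.

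Enzymes that remove reactive oxygen moved in both directions. Of 8 catalases and superoxide dismutases tested, 2 rose and 2 fell. CAT1 had 88.9, 103 and 129 CPM in RBH and 22.7, 38.8 and 37.0 CPM in water (log2 fold change 1.68 ± 0.22, adjusted p = 1.80e-06), and the cytosolic superoxide dismutase CSD1 had a log2 fold change of 0.89 ± 0.23 (adjusted p = 0.00442). CAT3 fell, to 688, 650 and 628 CPM in RBH against 1362, 1251 and 2274 CPM in water (log2 fold change -1.32 ± 0.20, adjusted p = 2.37e-05). CAT2 had 98.9, 121 and 104 CPM in RBH against 134, 175 and 157 CPM in water (adjusted p = 0.0324), a call lost without RBH replicate a (0.116), RBH replicate c (0.0924), water replicate b (0.137) or water replicate c (0.0924), and with no filter (0.0649). MSD1, the mitochondrial dismutase, had 661, 638 and 738 CPM in RBH and 704, 694 and 699 CPM in water, with ranges that overlapped.

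Of 15 genes of the ascorbate and glutathione cycle, 4 were higher and none lower, with a median log2 fold change of 0.34. Over all genes, 14.4% were higher and 12.6% lower. APX2, a cytosolic ascorbate peroxidase known for its answer to strong light and heat, had 14.6, 14.2 and 19.2 CPM in RBH and no count in water, at least 23.0-fold higher. GSH1, which catalyses the first step of glutathione synthesis, had 1183, 1355 and 1496 CPM in RBH and 450, 353 and 466 CPM in water (log2 fold change 1.67 ± 0.18, adjusted p = 1.48e-07). APX1, the main cytosolic form, had 2287, 2308 and 2227 CPM in RBH and 1073, 1545 and 1472 CPM in water (log2 fold change 0.74 ± 0.19, adjusted p = 0.00388). MDAR1 had a log2 fold change of 0.51 ± 0.16, and its call was lost without RBH replicate c (adjusted p = 0.0616) and on thinning (0.0587).

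Only 2 of 17 thiol peroxidases, thioredoxins and glutaredoxins passed, both higher, against 27.0% of all genes called and 14.4% called higher. The median of the list was -0.08. The glutaredoxin GRX480 had 126, 116 and 129 CPM in RBH and 3.58, 6.72 and 3.99 CPM in water (log2 fold change 4.66 ± 0.33, adjusted p = 1.05e-10). 2-Cys Prx B, a chloroplast peroxiredoxin, had 47.5, 47.8 and 58.3 CPM in RBH against 27.4, 27.6 and 33.6 CPM in water (adjusted p = 0.00564), a call lost without RBH replicate c (0.0578). Without RBH replicate a, 3 members of this list were called lower.

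All 11 singlet oxygen marker genes tested were higher in RBH than in water, with a median log2 fold change of 2.25 and a range of 1.37 to 4.57. These genes are known from mutants and treatments that release singlet oxygen in chloroplasts. SIB1, a nuclear-encoded protein that binds plastid sigma factors, had 25.3, 39.4 and 45.4 CPM in RBH and 1.19, 1.49 and 1.71 CPM in water (log2 fold change 4.57 ± 0.42, adjusted p = 9.07e-09). AT1G19020 had 754, 882 and 699 CPM in RBH and 96.7, 102 and 81.5 CPM in water (log2 fold change 3.06 ± 0.19, adjusted p = 1.68e-11). BAP1, which restrains cell death, had 179, 252 and 249 CPM in RBH and 66.8, 106 and 59.8 CPM in water (log2 fold change 1.55 ± 0.23, adjusted p = 9.75e-06). None of the 3 overlapped between RBH and water.

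Several of these markers are transcription factors that also stand in the family lists. Of 19 ERF factors tested, 11 were higher and 1 lower. ERF6 had 1719, 1447 and 986 CPM in RBH and 116, 143 and 99.7 CPM in water (log2 fold change 3.53 ± 0.24, adjusted p = 6.55e-11). ERF2 had 227, 218 and 152 CPM in RBH and 8.35, 19.4 and 16.5 CPM in water (log2 fold change 3.67 ± 0.32, adjusted p = 9.97e-09). ERF-1 had 1671, 1502 and 1192 CPM in RBH and 224, 177 and 241 CPM in water (log2 fold change 2.76 ± 0.25, adjusted p = 1.45e-08). In each of the 3 the RBH libraries lay several-fold above water, with replicate c the lowest of them.

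Of 17 WRKY factors tested, 10 were higher and 4 lower. WRKY33, needed for camalexin production and resistance to necrotrophic fungi, had 296, 344 and 311 CPM in RBH and 34.6, 74.0 and 34.2 CPM in water (log2 fold change 2.72 ± 0.27, adjusted p = 4.53e-08). WRKY6, WRKY15 and WRKY45 rose with log2 fold changes of 2.13 ± 0.21, 2.31 ± 0.20 and 2.54 ± 0.25. Without water replicate a or c, 6 WRKY factors were called higher, and without RBH replicate c, 2 were called lower. Among 10 zinc finger factors of the ZAT and AZF kind, 5 were higher and 2 lower. ZAT6 had 1110, 1275 and 897 CPM in RBH and 243, 222 and 227 CPM in water (log2 fold change 2.25 ± 0.19, adjusted p = 2.77e-09). RHL41 and STZ, better known as ZAT12 and ZAT10, had log2 fold changes of 1.81 ± 0.23 and 1.37 ± 0.21. Those that fell were ZF1 (-1.75 ± 0.36, adjusted p = 0.000619) and AT2G28200 (-1.47 ± 0.29, adjusted p = 0.000359).

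Genes for taking up and reducing sulfate rose with the glutathione transferases. Of 18 genes of sulfate uptake, assimilation and the sulfur starvation response tested, 13 were higher and 1 lower, with a median log2 fold change of 2.16. LSU1, of a small family known for its induction under low sulfur, had 1333, 1332 and 975 CPM in RBH and 4.77, 5.98 and 16.0 CPM in water (log2 fold change 6.95 ± 0.37, adjusted p = 3.82e-12). LSU3 and LSU2 had log2 fold changes of 6.15 ± 0.38 and 4.67 ± 0.29, and LSU genes are similar enough to share reads. APR3, which reduces activated sulfate to sulfite, had 494, 621 and 612 CPM in RBH and 31.0, 18.7 and 23.4 CPM in water (log2 fold change 4.59 ± 0.24, adjusted p = 1.20e-12). APS3, an ATP sulfurylase for the step before it, had 237, 305 and 173 CPM in RBH and 17.9, 19.4 and 15.4 CPM in water (log2 fold change 3.76 ± 0.31, adjusted p = 1.84e-09). All these RBH values were above every water value.

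Genes for tryptophan synthesis, and part of those for the indole defence compounds made from it, rose as well. Of 7 tryptophan synthesis genes tested, 6 were higher and none lower. ASA1, an anthranilate synthase subunit at the entry to the pathway, had 436, 596 and 602 CPM in RBH and 69.2, 59.0 and 75.8 CPM in water (log2 fold change 3.00 ± 0.23, adjusted p = 3.14e-10). TSA1 and TSB1, the subunits of tryptophan synthase at its end, both had log2 fold changes of 1.88, with SE of 0.23 and 0.18. Of 25 genes of indole glucosinolate and camalexin synthesis, 13 were higher and 1 lower, or 2 lower without RBH replicate a or water replicate b. PAD3, the last enzyme of camalexin synthesis, had 159, 226 and 213 CPM in RBH and 2.39, 3.74 and 3.42 CPM in water (log2 fold change 5.90 ± 0.35, adjusted p = 6.65e-12). MYB51, a regulator of indole glucosinolates, had 70.5, 83.3 and 62.0 CPM in RBH and 9.55, 6.72 and 7.98 CPM in water (log2 fold change 3.16 ± 0.34, adjusted p = 9.01e-08). The methyltransferase genes IGMT2 (log2 fold change 5.47 ± 0.40) and IGMT4 (a count ratio of 112, 95% exact interval 19.99 to 4459) are near copies of each other, and their split is uncertain.

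Jasmonate is an oxylipin hormone made from chloroplast lipids, and it counters necrotrophs and chewing insects. Of 21 genes for its synthesis and turnover tested, 14 were higher in RBH and none lower, with a median log2 fold change of 1.27. AOC2, an allene oxide cyclase, had 72.1, 101 and 104 CPM in RBH and 0, 1.49 and 2.85 CPM in water (log2 fold change 5.68 ± 0.45, adjusted p = 8.16e-10). AOC1 had 46.8, 53.6 and 41.7 CPM in RBH and 0, 0 and 2.85 CPM in water (log2 fold change 5.18 ± 0.51, adjusted p = 2.72e-08), and these neighbouring copies may share reads. AOC3 had a smaller fold change, at 484, 530 and 465 CPM in RBH against 198, 222 and 158 CPM in water (log2 fold change 1.36 ± 0.23, adjusted p = 8.83e-05). In the signalling list 2 of 8 genes tested passed, against 27.0% of all genes. Both were higher, against 14.4% of all genes, and both are JAZ repressors. They were JAZ5, with 48.3, 49.7 and 53.7 CPM in RBH and 5.97, 16.4 and 6.27 CPM in water, and TIFY10B, with 34.5, 38.1 and 47.2 CPM in RBH and 2.39, 20.2 and 15.4 CPM in water.

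Of 17 phenylpropanoid and lignin genes, 11 were higher and 3 lower. PAL1, the entry enzyme that deaminates phenylalanine, had 1122, 1436 and 1431 CPM in RBH and 198, 208 and 199 CPM in water (log2 fold change 2.72 ± 0.20, adjusted p = 1.70e-10). CCR2, a cinnamoyl-CoA reductase linked to stress lignin, had 735, 711 and 442 CPM in RBH and 15.5, 14.2 and 14.8 CPM in water (log2 fold change 5.40 ± 0.39, adjusted p = 2.04e-09). FLS1, the main flavonol synthase on a side branch, fell, to 14.6, 10.98 and 9.51 CPM in RBH against 103, 92.6 and 70.7 CPM in water (log2 fold change -2.97 ± 0.28, adjusted p = 1.41e-08).

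Immune signalling genes rose in part. Of 14 genes of pattern recognition and kinase signalling tested, out of 22 listed, 8 were higher and none lower. MKK9, a kinase upstream of the stress MAP kinases, had 734, 560 and 486 CPM in RBH and 132, 114 and 152 CPM in water (log2 fold change 2.15 ± 0.22, adjusted p = 3.50e-08). PEPR1, a receptor for plant danger peptides, had 72.8, 183 and 147 CPM in RBH and 31.0, 21.7 and 24.5 CPM in water (log2 fold change 2.42 ± 0.35, adjusted p = 2.08e-05), and PROPEP1, a precursor of such a peptide, had a log2 fold change of 1.18 ± 0.25. In the salicylate and EDS1 list 6 of 15 genes could be tested, and 4 were higher, or 2 without water replicate c. Of these, YLS9, also called NHL10, had 14.6, 27.8 and 31.7 CPM in RBH and 3 counts in the water group, a ratio of 37.2 (95% exact interval 12.6 to 182).

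Markers of disturbed mitochondria and of low oxygen were higher too. Of 13 genes of the mitochondrial retrograde response tested, 10 were higher and none lower, with a median log2 fold change of 2.04. NAC102 had 371, 592 and 540 CPM in RBH and 16.7, 22.4 and 11.4 CPM in water (log2 fold change 4.91 ± 0.35, adjusted p = 7.08e-10). NDB2, an NADH dehydrogenase on the outer face of the inner membrane, had 122, 127 and 113 CPM in RBH and 37.0, 45.6 and 29.1 CPM in water (log2 fold change 1.70 ± 0.21, adjusted p = 7.26e-07). Of 17 core hypoxia genes, 11 were higher and none lower. HB1, a class 1 haemoglobin, had 157, 194 and 182 CPM in RBH and 46.5, 54.5 and 49.6 CPM in water (log2 fold change 1.82 ± 0.20, adjusted p = 2.20e-07). ADH1, the fermentative alcohol dehydrogenase, had 50.6, 40.7 and 51.3 CPM in RBH and 4.77, 5.98 and 10.8 CPM in water (log2 fold change 2.63 ± 0.33, adjusted p = 9.29e-07). LBD41 had 196, 174 and 175 CPM in RBH and 40.6, 42.6 and 51.3 CPM in water (log2 fold change 2.00 ± 0.24, adjusted p = 5.52e-07).

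Listed genes of protein folding in the endoplasmic reticulum fell more often than they rose. ATHSP22.0 of that compartment, which rose, was counted above with the small heat shock proteins and is not in this list. Of 19 tested, 6 were lower in RBH than in water, 1 was higher and 12 were not called, with a median log2 fold change of -0.37. CNX1, a calnexin that holds glycoproteins while they fold, had 544, 544 and 603 CPM in RBH and 1559, 1303 and 1246 CPM in water (log2 fold change -1.28 ± 0.18, adjusted p = 4.14e-06). BIP2, an HSP70 of that compartment, had 846, 641 and 737 CPM in RBH and 1421, 1313 and 1289 CPM in water (log2 fold change -0.85 ± 0.16, adjusted p = 0.000291). BIP1, its near copy, and the calreticulin CRT1b had log2 fold changes of -0.69 ± 0.17 and -0.76 ± 0.19. ATERDJ3A was the member that rose, from a single count in the water group, with a ratio of 21.2 (95% exact interval 3.62 to 855).

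Genes of protein turnover and of ribosomes held a smaller share of calls than the 27.0% of all genes. Of 35 proteasome subunits tested 1 was called higher, AT5G23540, and it was not called without water replicate a (adjusted p = 0.104) or RBH replicate c (0.0628). Of 36 cytosolic ribosomal proteins, 4 were higher and none lower, with a median log2 fold change of 0.19, and 1 was called without water replicate a and 2 without water replicate c. None of 17 nucleolar ribosome assembly genes and none of 6 cell division genes passed by edgeR or DESeq2, though 2 and 1 of them had an unadjusted p under 0.05 and the same numbers passed without RBH replicate b. NUC-L1, the main nucleolin, had 1207, 869 and 1126 CPM in RBH and 812, 767 and 778 CPM in water (log2 fold change 0.44 ± 0.18, adjusted p = 0.0712).

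Root hair genes had the lowest medians of all lists. Of 16 tested in the larger list, 13 were lower in RBH (11 without RBH replicate c) and none higher, with a median log2 fold change of -3.59 against 0.04 over all genes. XTH14, a xyloglucan-modifying enzyme of growing hairs, had 19.9, 27.1 and 6.16 CPM in RBH and 261, 306 and 257 CPM in water (log2 fold change -4.14 ± 0.46, adjusted p = 4.14e-06). EXPA7, a hair-specific expansin, had 1.53, 5.17 and 0.705 CPM in RBH and 45.4, 48.6 and 42.7 CPM in water (log2 fold change -4.60 ± 0.55, adjusted p = 1.24e-06). RHS19, a peroxidase of root hairs, had 0.767, 2.58 and 0.176 CPM in RBH and 10.7, 21.7 and 16.0 CPM in water (log2 fold change -4.28 ± 0.59, adjusted p = 4.54e-06). For these 3 genes RBH replicate c was the lowest library and replicate b the highest of the RBH group.

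The 5 root hair cell markers, EXPA7, EXPA18, SHV2 (also called COBL9), PRP3 and LRX1, were all lower in RBH, 4 of them without RBH replicate c. Summed, they reached 13.03, 29.06 and 2.64 CPM in RBH, 31.2, 50.2 and 27.1 CPM in RB 2 h and 192, 192 and 160 CPM in water. LRX1, a wall protein of hairs, had no count in RBH replicates a and c. Fewer cells of a type and less RNA per cell cannot be told apart in these libraries. Of the 16 markers tested of other root tissues, 5 passed, against 27.0% of all genes. None of 6 endodermis markers and 1 root cap marker tested passed by edgeR or DESeq2, with 0 at an unadjusted p under 0.05, and 1 of 4 phloem markers fell, the sucrose transporter SUC2, with 41.4, 56.8 and 88.1 CPM in RBH and 122, 120 and 148 CPM in water (log2 fold change -1.03 ± 0.23, adjusted p = 0.00130). The xylem markers XCP1 and XCP2 were higher, with log2 fold changes of 1.09 ± 0.35 and 0.57 ± 0.17, and neither was called without RBH replicate c (adjusted p = 0.124 and 0.156) or without water replicate c (0.0979 and 0.0750). XCP1 was also not called without RBH replicate b (0.115), water replicate a (0.0619) or water replicate b (0.0526), nor in a fit of only the 6 libraries (0.0618). Of the 3 whole-root markers, TIP2;3 and PIP1;5 fell, with log2 fold changes of -2.11 ± 0.26 (adjusted p = 1.24e-06) and -1.86 ± 0.23 (adjusted p = 1.08e-06). PYK10, a beta-glucosidase, did not pass, at 105, 60.7 and 14.1 CPM in RBH and 59.7, 37.4 and 32.5 CPM in water.

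**Figure D4:**
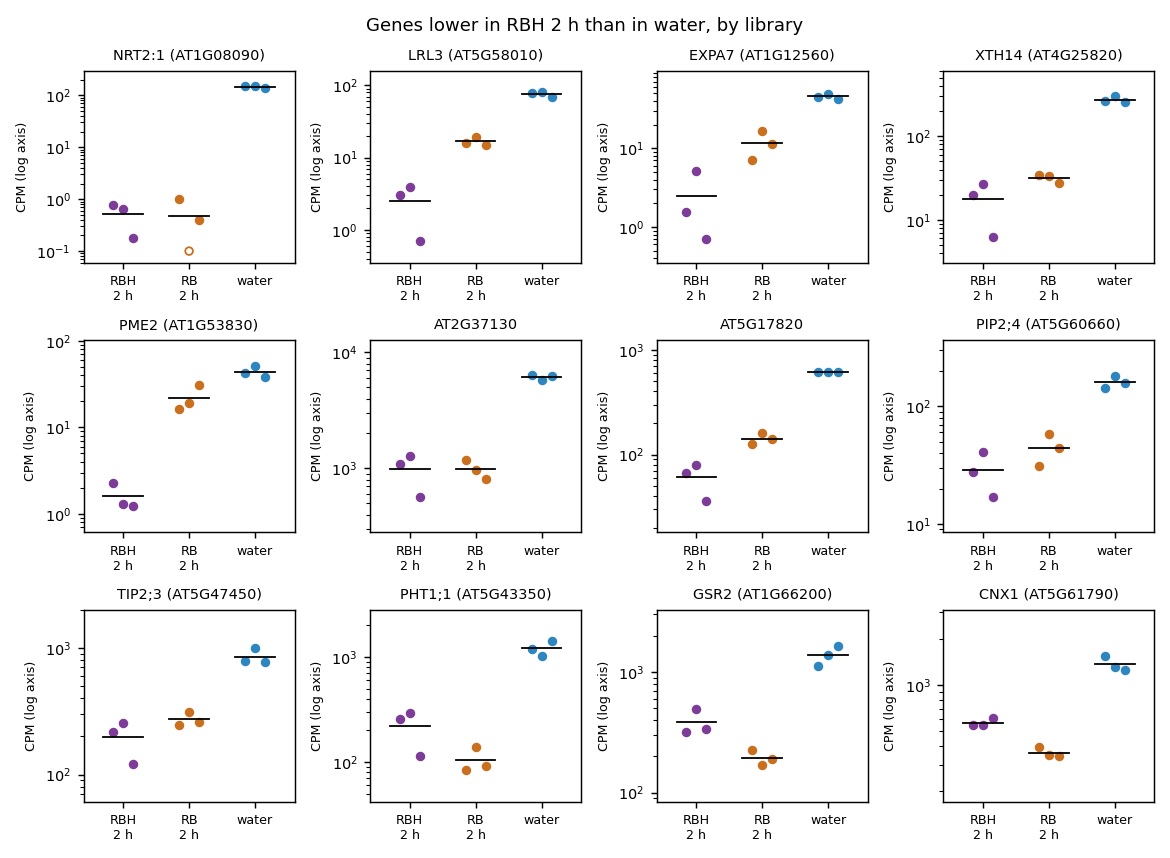
CPM (log axis) of genes that were lower in RBH than in water, with a point for each library of RBH 2 h, RB 2 h and water and a bar at each group's mean; an open circle drawn at 0.1 CPM is a library with no count. NRT2:1 lies below 1 CPM in all 3 RBH libraries and at 137 to 149 CPM in water, and for the root hair genes RBH replicate c is the lowest point.

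Aquaporins, the water channels of membranes, fell in most cases that passed. Of 12 plasma membrane aquaporins tested, 7 were lower and none higher, with a median log2 fold change of -0.83. PIP2;4 had 27.6, 41.3 and 17.1 CPM in RBH and 142, 182 and 158 CPM in water (log2 fold change -2.56 ± 0.27, adjusted p = 6.21e-08). PIP2B had 596, 911 and 488 CPM in RBH and 1736, 1785 and 1600 CPM in water (log2 fold change -1.36 ± 0.19, adjusted p = 5.69e-06). PIP1C did not pass, at 1712, 1710 and 1171 CPM in RBH and 1563, 1634 and 1656 CPM in water. Of 11 aquaporins of the vacuole and other membranes, 8 were lower and 1 higher. TIP2;2 had 791, 1029 and 503 CPM in RBH and 2666, 2912 and 2472 CPM in water (log2 fold change -1.80 ± 0.23, adjusted p = 1.91e-06). TIP4;1 had 26.8, 25.2 and 11.3 CPM in RBH and 137, 145 and 112 CPM in water (log2 fold change -2.75 ± 0.29, adjusted p = 7.72e-08). The member that rose was NIP2;1, known to be induced by flooding, with 7.67, 13.6 and 13.7 CPM in RBH and 1.19, 1.49 and 0.570 CPM in water (log2 fold change 3.47 ± 0.68, adjusted p = 0.000357).

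Class III peroxidases, secreted enzymes that cross-link or loosen walls, split, with 11 of 26 tested lower and 5 higher. AT3G01190 had 60.6, 66.5 and 29.9 CPM in RBH and 532, 552 and 565 CPM in water (log2 fold change -3.44 ± 0.25, adjusted p = 1.52e-10). AT2G37130, the most abundant of those named, had 1085, 1290 and 566 CPM in RBH and 6358, 5796 and 6245 CPM in water (log2 fold change -2.65 ± 0.28, adjusted p = 3.22e-07). AT4G36430 rose, with 212, 393 and 437 CPM in RBH and 32.2, 53.0 and 41.0 CPM in water (log2 fold change 3.03 ± 0.30, adjusted p = 4.84e-08). Of 15 expansins and xyloglucan enzymes, 4 were lower and 2 higher, or 1 higher without RBH replicate b, water replicate a or water replicate c. Across all genes, 12.6% were lower and 14.4% higher. EXPB1 had 9.20, 6.46 and 4.58 CPM in RBH and 45.4, 40.3 and 26.2 CPM in water (log2 fold change -2.56 ± 0.35, adjusted p = 4.30e-06), while XTR6 had 296, 322 and 331 CPM in RBH and 75.2, 102 and 76.4 CPM in water (log2 fold change 1.90 ± 0.21, adjusted p = 1.21e-07).

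Genes of nitrogen and phosphate uptake fell more often than they rose. Of 18 nitrogen genes tested, 10 were lower and 4 higher. WR3, the partner protein of NRT2:1 also called NRT3.1, had 17.6, 14.9 and 15.3 CPM in RBH and 77.6, 72.5 and 75.8 CPM in water (log2 fold change -2.25 ± 0.22, adjusted p = 2.55e-08). GSR2, a glutamine synthetase of the cytosol, had 318, 491 and 339 CPM in RBH and 1116, 1374 and 1641 CPM in water (log2 fold change -1.85 ± 0.20, adjusted p = 1.14e-07). The nitrate reductases rose instead. NIA2 had 982, 880 and 821 CPM in RBH and 211, 194 and 241 CPM in water (log2 fold change 2.05 ± 0.18, adjusted p = 6.70e-09), and NIA1 had a log2 fold change of 3.16 ± 0.31 (adjusted p = 4.13e-08). Of 6 phosphate genes tested out of 13 listed, 4 were lower. The root phosphate transporter PHT1;1 had 255, 291 and 114 CPM in RBH and 1203, 1026 and 1411 CPM in water (log2 fold change -2.48 ± 0.27, adjusted p = 2.82e-07), and PHT1;4 a log2 fold change of -2.86 ± 0.29 (adjusted p = 4.14e-08). Of the other 2 calls, PHO1 was lost without RBH replicate c (adjusted p = 0.0628) and PHO2 without water replicate b (0.0528). Of 10 iron genes tested out of 28 listed, 3 were lower and 2 higher, and neither rise was called without RBH replicate c, water replicate a or water replicate c. The shares over all genes were 12.6% lower and 14.4% higher.

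Of 21 auxin response and transport genes tested, 8 were lower and 1 higher, or 5 lower without RBH replicate c. LAX3, an auxin importer, had 57.5, 58.1 and 48.4 CPM in RBH and 196, 191 and 185 CPM in water (log2 fold change -1.81 ± 0.18, adjusted p = 3.09e-08). AUX1, the related importer of the root tip, had 35.3, 42.6 and 30.8 CPM in RBH and 77.6, 98.6 and 94.0 CPM in water (log2 fold change -1.34 ± 0.19, adjusted p = 7.99e-06). The transporter ABCB4 was the member that rose, with 133, 165 and 154 CPM in RBH and 50.1, 38.8 and 54.1 CPM in water (log2 fold change 1.66 ± 0.18, adjusted p = 1.43e-07). Of 18 abscisic acid and dehydration genes, 5 were higher and 1 lower, against 14.4% of all genes higher and 12.6% lower. LTI30, a dehydrin, had 603, 971 and 805 CPM in RBH and 161, 229 and 189 CPM in water (log2 fold change 2.03 ± 0.20, adjusted p = 3.53e-08). HAI1, an abscisic acid-induced phosphatase, had 27.6, 31.6 and 23.1 CPM in RBH and 8.35, 3.74 and 2.28 CPM in water (log2 fold change 2.66 ± 0.38, adjusted p = 6.20e-06). Of 13 ethylene genes tested, 3 passed, all higher, against 27.0% of all genes called and 14.4% called higher. Among them was the ethylene synthesis gene ACS2, with 9.20, 7.75 and 8.28 CPM in RBH and 2 counts in the water group, a ratio of 16.4 (95% exact interval 4.37 to 138).

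Calcium sensors, oxidases and cell death regulators held shares of calls at or above the 27.0% of all genes. Of 7 calcium sensor and touch genes tested, 2 were higher, TCH3 and CML37, both calmodulin-like proteins. CML37 had 91.2, 114 and 116 CPM in RBH and 8.35, 8.96 and 1.71 CPM in water (log2 fold change 4.21 ± 0.32, adjusted p = 3.76e-10). Among 5 RBOH genes tested, which encode NADPH oxidases that make superoxide at the plasma membrane, 1 was higher and 2 lower, or 2 higher without RBH replicate c or water replicate b. RBOHD, the main stress oxidase, had 144, 149 and 123 CPM in RBH and 39.4, 44.1 and 36.5 CPM in water (log2 fold change 1.79 ± 0.26, adjusted p = 8.13e-06). AT4G25090 had 0.767, 1.94 and 0.352 CPM in RBH and 9.55, 8.96 and 10.8 CPM in water (log2 fold change -3.58 ± 0.72, adjusted p = 0.000488). RBOHB had 14.6, 21.3 and 9.51 CPM in RBH and 33.4, 26.1 and 23.4 CPM in water, and its call (adjusted p = 0.0206) was lost without RBH replicate c (0.184) or water replicate a (0.0871) and on thinning (0.133). Of 13 metacaspases, vacuolar proteases and cell death regulators, 3 were higher and 2 lower. BAP2, a relative of BAP1, had 52.1, 56.8 and 43.0 CPM in RBH and 1.19, 2.24 and 0.570 CPM in water (log2 fold change 5.23 ± 0.42, adjusted p = 1.08e-09), and the protease RD21A fell, to 125, 199 and 170 CPM in RBH against 351, 360 and 387 CPM in water (log2 fold change -1.15 ± 0.20, adjusted p = 8.73e-05). Of 8 autophagy genes, 2 were called, both lower, against 12.6% of all genes called lower and 27.0% called in either direction. With RBH replicate a, b or c or water replicate b or c left out, 1 was called.

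Ranked by CPM, with no correction for length, the most abundant gene that rose was TCH3, with 5956, 7129 and 6099 CPM in RBH and 178, 224 and 135 CPM in water (log2 fold change 5.16 ± 0.21, adjusted p = 2.82e-14). SAG21, a late embryogenesis abundant protein of mitochondria tied to oxidative stress, had 6357, 6108 and 4770 CPM in RBH and 1567, 1726 and 1981 CPM in water (log2 fold change 1.71 ± 0.18, adjusted p = 6.84e-08). UCC2, a copper-binding uclacyanin, had 3463, 3874 and 3173 CPM in RBH and 1827, 1657 and 1735 CPM in water (log2 fold change 1.01 ± 0.18, adjusted p = 0.000157). AT1G62480 completed the list, with a log2 fold change of 0.55 ± 0.19, and was not called without RBH replicate a (adjusted p = 0.128) or any 1 of the water replicates (0.0520 to 0.122). The most abundant gene that fell was ATMG00020, the mitochondrial 26S ribosomal RNA, with 15894, 13516 and 8874 CPM in RBH and 37199, 33784 and 30765 CPM in water (log2 fold change -1.41 ± 0.32, adjusted p = 0.00316). Genes of the organelle genomes together took 0.980 to 1.58% of counts in RBH and 3.31 to 3.92% in water. GAMMA-TIP, the main vacuolar aquaporin, had 2929, 3848 and 2026 CPM in RBH and 7434, 6477 and 7053 CPM in water (log2 fold change -1.25 ± 0.24, adjusted p = 0.000402), and DOT1 a log2 fold change of -0.70 ± 0.19. AT1G54410 fell by 0.55 on the log2 scale, a call lost without RBH replicate c (adjusted p = 0.0753) or water replicate c (0.0972).

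The RBH libraries were also set against RB 2 h, which shares the time and lacks the peroxide, and shares the dye if MRB stands for RB. This comparison uses the same RBH libraries as the one with water, so the values are given side by side and no overlap between them is counted. Of the 9891 genes, 971 (9.82%) were higher in RBH than in RB 2 h and 689 (6.97%) lower. Of those, 41 were higher and 34 lower by 8-fold or more. Without RBH replicate c, 661 were higher and 416 lower, and the lower count was 439 without RB 2 h replicate b and 459 without RB 2 h replicate c. Calls split 58.5% higher to the rest lower under the main scaling, and 34.4% higher when library totals alone were used, which moved the median of all genes by -0.21 (log2). Directions of small differences from RB 2 h therefore depend on the scaling.

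**Figure D5:**
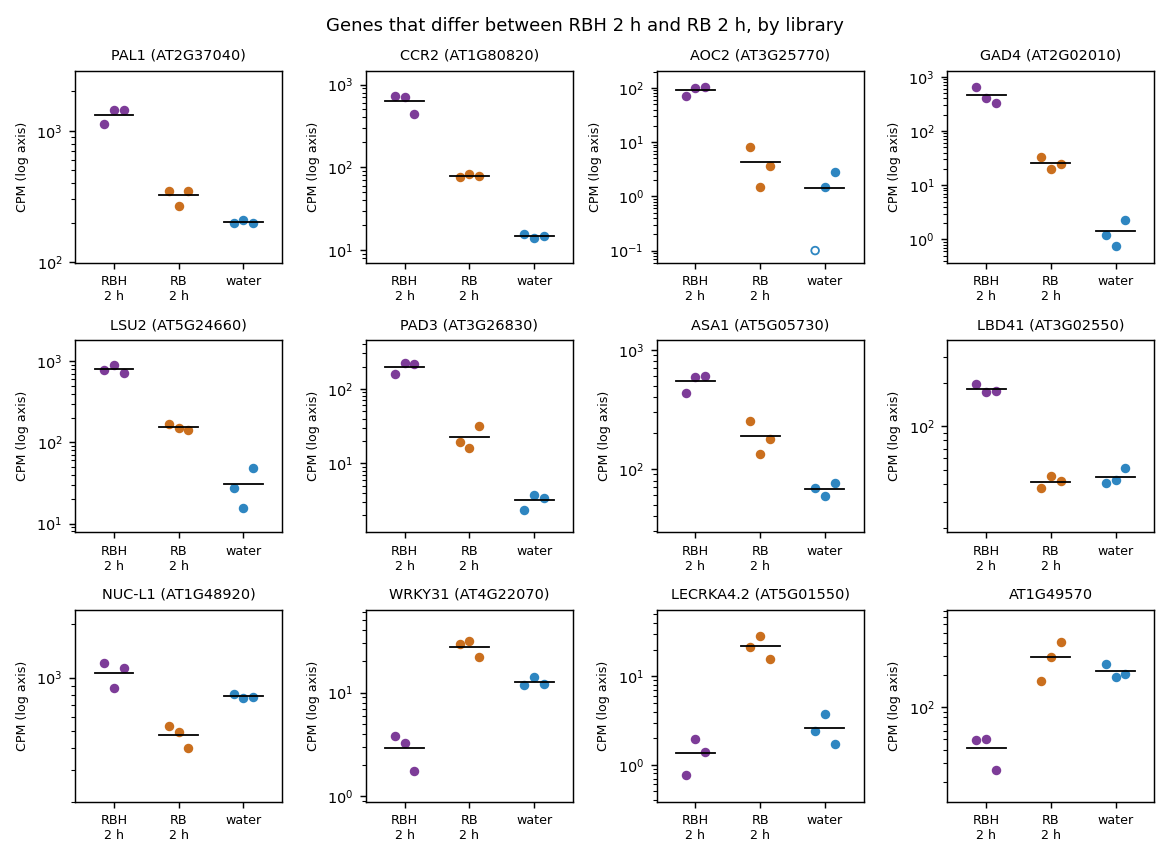
CPM (log axis) of 12 genes that differed between RBH 2 h and RB 2 h, with a point for each library of RBH 2 h, RB 2 h and water and a bar at each group's mean; an open circle drawn at 0.1 CPM is a library with no count. The first 9 panels show genes higher in RBH than in RB 2 h, the last 3 genes lower, and in none of the 12 do the RBH and RB 2 h points overlap.

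Phenylpropanoid genes stood furthest from the dye alone by share of members called, with 14 of 17 higher in RBH than in RB 2 h and 1 lower. PAL1 had 1122, 1436 and 1431 CPM in RBH and 351, 268 and 350 CPM in RB 2 h (log2 fold change 2.04 ± 0.19, adjusted p = 9.51e-08). CCR2 had 735, 711 and 442 CPM in RBH and 77.6, 82.8 and 78.9 CPM in RB 2 h (log2 fold change 2.97 ± 0.32, adjusted p = 3.33e-06). PMAT2, a malonyltransferase of phenolic glucosides, had 36.0, 47.8 and 37.9 CPM in RBH, 2 counts in the RB 2 h group and 2 in the water group. Its count ratio to RB 2 h was 109 (95% exact interval 29.9 to 901) and to water 77.4 (95% exact interval 21.3 to 642). FLS1 was lower than in RB 2 h too, at 14.6, 10.98 and 9.51 CPM in RBH against 18.1, 31.6 and 24.7 CPM in RB 2 h (log2 fold change -1.19 ± 0.29, adjusted p = 0.00635), and no member was called lower without RBH replicate c.

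Jasmonate, sulfate and indole genes were higher in RBH than in RB 2 h as well, by 9 of 21, 10 of 18 and 10 of 25 genes tested, with none lower. The indole count was 5 without RBH replicate b, and DESeq2 called 0 of the genes of these lists lower. An unadjusted p under 0.05 in that direction was reached by 0 jasmonate, 1 sulfate and 2 indole genes. AOC2 had 72.1, 101 and 104 CPM in RBH and 8.06, 1.46 and 3.64 CPM in RB 2 h (log2 fold change 4.61 ± 0.38, adjusted p = 1.97e-08). PAD3 had 159, 226 and 213 CPM in RBH and 19.1, 16.1 and 31.9 CPM in RB 2 h (log2 fold change 3.12 ± 0.26, adjusted p = 1.74e-08). LSU2 had 782, 913 and 715 CPM in RBH and 167, 152 and 144 CPM in RB 2 h (log2 fold change 2.38 ± 0.25, adjusted p = 6.01e-07). For these 3 genes RB 2 h lay nearer to water, on the linear scale, than to RBH. Of 7 tryptophan synthesis genes 4 were higher, with ASA1 at 436, 596 and 602 CPM in RBH and 253, 134 and 177 CPM in RB 2 h (log2 fold change 1.55 ± 0.21, adjusted p = 1.41e-05).

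Among detoxification genes, 6 of 13 tau-class glutathione transferases were higher than in RB 2 h and none lower by edgeR, while DESeq2 called 1 lower and 2 had an unadjusted p under 0.05. GSTU12 had 816, 987 and 809 CPM in RBH and 259, 164 and 332 CPM in RB 2 h (log2 fold change 1.79 ± 0.26, adjusted p = 5.97e-05). Of the electrophile response genes, 5 of 11 were higher, or 3 without RBH replicate b or c, and CYP710A1 had 375, 422 and 366 CPM in RBH against 69.5, 93.5 and 95.4 CPM in RB 2 h (log2 fold change 2.15 ± 0.20, adjusted p = 9.51e-08). GAD4 had 649, 413 and 330 CPM in RBH and 33.2, 20.0 and 25.1 CPM in RB 2 h (log2 fold change 4.19 ± 0.28, adjusted p = 2.15e-09). Glycosyltransferases split 3 and 3, with UGT73B5 higher, at 945, 1102 and 1084 CPM in RBH against 402, 231 and 316 CPM in RB 2 h, and UGT74E2 lower, at 10.7, 11.6 and 16.4 CPM in RBH against 67.5, 26.3 and 127 CPM in RB 2 h. Without RB 2 h replicate c, 1 glycosyltransferase was called lower.

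Heat shock genes differed from RB 2 h in both directions. Of 8 cytosolic small heat shock proteins 2 were called higher than in RB 2 h, HSP18.2 and AT1G59860. HSP18.2 had 166, 200 and 209 CPM in RBH and 66.5, 50.6 and 61.9 CPM in RB 2 h (log2 fold change 1.70 ± 0.19, adjusted p = 1.10e-06), while the call of AT1G59860 (adjusted p = 0.0390) was lost without RBH replicate b (0.247) or c (0.0934), without RB 2 h replicate a (0.0760) or b (0.208), with library totals alone (0.180), in a fit of only the 6 libraries (0.129) and on thinning (0.0771). HSP17.4 had 1024, 1524 and 1389 CPM in RBH and 1473, 1082 and 1620 CPM in RB 2 h, a log2 fold change of -0.08 ± 0.19 (adjusted p = 0.816). Hsp70b, by contrast, had 320, 530 and 558 CPM in RBH and 154, 117 and 164 CPM in RB 2 h (log2 fold change 1.70 ± 0.22, adjusted p = 7.26e-06). APX2 had 14.6, 14.2 and 19.2 CPM in RBH and 0, 1.46 and 1.62 CPM in RB 2 h (log2 fold change 3.66 ± 0.56, adjusted p = 0.000144). Of the 5 small heat shock proteins of organelles, 2 were higher than in RB 2 h and 1 lower. ATHSP22.0 had 42.9, 53.0 and 56.7 CPM in RBH and 12.1, 8.28 and 21.8 CPM in RB 2 h (log2 fold change 1.82 ± 0.31, adjusted p = 0.000414), and HSP21 had 9.20, 26.5 and 23.3 CPM in RBH and 4.03, 0.487 and 5.26 CPM in RB 2 h (log2 fold change 2.62 ± 0.54, adjusted p = 0.00225). The lower one was the mitochondrial AT5G51440, at 79.7, 164 and 166 CPM in RBH against 309, 263 and 463 CPM in RB 2 h (log2 fold change -1.33 ± 0.24, adjusted p = 0.000585). Of 17 chaperones of the HSP70, HSP90 and HSP101 list, 1 was higher and 2 lower, or 1 lower without RBH replicate a or RB 2 h replicate a or c. Over all genes, 9.82% were higher than in RB 2 h and 6.97% lower. Among 7 heat shock regulators 2 were lower and none higher, HSFA3, with 6.13, 6.46 and 4.58 CPM in RBH and 11.1, 8.76 and 22.2 CPM in RB 2 h (adjusted p = 0.0177), and AT-HSFA7B, with 9.97, 13.6 and 10.7 CPM in RBH and 28.2, 18.02 and 21.0 CPM in RB 2 h (adjusted p = 0.0390). Neither was called without RBH replicate c (0.103 and 0.121) or RB 2 h replicate c (0.255 and 0.0871), and AT-HSFA7B was also not called by DESeq2 (0.0681), in a fit of only the 6 libraries (0.0556), or without RBH replicate a (0.0889) or RB 2 h replicate a (0.106).

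Of the 11 singlet oxygen markers, none was called higher than in RB 2 h by edgeR or DESeq2, with 1 at an unadjusted p under 0.05, and 1 was lower, BCS1. Among all genes, 9.82% were called higher and 6.97% lower. The median log2 fold change of the markers was -0.19. BCS1, an AAA-type ATPase, had 19.2, 20.7 and 12.5 CPM in RBH and 25.2, 46.7 and 50.1 CPM in RB 2 h (adjusted p = 0.0116), a call lost without RBH replicate c (0.0718) or RB 2 h replicate c (0.0671). Without RBH replicate b, 3 markers were called lower, without RB 2 h replicate b 2, and without RBH replicate c, 1 was called higher. WRKY33 had 296, 344 and 311 CPM in RBH and 321, 398 and 362 CPM in RB 2 h, with overlapping ranges and a log2 fold change of -0.19 ± 0.24.

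Some transcription factors did differ. DDF1, a DREB-type factor, had 51.4, 64.6 and 74.5 CPM in RBH and 2.02, 0.974 and 1.62 CPM in RB 2 h (log2 fold change 5.41 ± 1.08, adjusted p = 0.00467). Against water its call (adjusted p = 0.0412) was lost by DESeq2 (0.146), in a fit of only the 6 libraries (0.138), with no filter (0.0686) and without RBH replicate a, b or c or water replicate a or c (0.0563 to 0.118). Water replicate b held 30.6 CPM of it and replicates a and c 2.39 and 0 CPM. Its close relative ddf2 had 10.7, 8.40 and 9.86 CPM in RBH and 1 count in the RB 2 h group, a ratio of 53.7 (95% exact interval 9.38 to 2146). ERF14 had 35.3, 34.2 and 25.5 CPM in RBH and 0, 0.487 and 1.62 CPM in RB 2 h (log2 fold change 5.05 ± 0.57, adjusted p = 1.54e-06). WRKY31 was lower than in either comparison group, with 3.83, 3.23 and 1.76 CPM in RBH, 29.2, 31.6 and 22.2 CPM in RB 2 h and 11.9, 14.2 and 12.0 CPM in water, log2 fold changes of -3.43 ± 0.36 from RB 2 h and -2.32 ± 0.40 from water. The lectin receptor kinase gene LECRKA4.2 had 0.767, 1.94 and 1.41 CPM in RBH, 21.2, 28.2 and 15.8 CPM in RB 2 h and 2.39, 3.74 and 1.71 CPM in water (log2 fold change from RB 2 h -3.89 ± 0.40, adjusted p = 4.13e-07). It was thus high in RB 2 h and low in both RBH and water.

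Genes of ribosome assembly and of the endoplasmic reticulum were more often higher than lower in RBH. Of 17 nucleolar ribosome assembly genes 5 were higher in RBH than in RB 2 h and none lower. NUC-L1 had 1207, 869 and 1126 CPM in RBH, 534, 494 and 400 CPM in RB 2 h and 812, 767 and 778 CPM in water (log2 fold change from RB 2 h 1.17 ± 0.18, adjusted p = 8.95e-05). Of 36 cytosolic ribosomal proteins, 15 were higher than in RB 2 h and 1 lower (3 without RBH replicate a). The higher count was 9 without RBH replicate a, 8 without RBH replicate c, 8 without RB 2 h replicate b and 6 without RB 2 h replicate c. Shares over all genes were 9.82% higher and 6.97% lower. The median log2 fold change of these ribosomal proteins was 0.47, and library totals alone moved all genes by a median of -0.21. In the endoplasmic reticulum list, 7 of 19 were higher than in RB 2 h and 1 lower, or 2 lower without RBH replicate a or b or RB 2 h replicate b and 0 without RBH replicate c or RB 2 h replicate c. BIP2 had 846, 641 and 737 CPM in RBH, 458, 402 and 408 CPM in RB 2 h and 1421, 1313 and 1289 CPM in water, so that RBH lay between them (log2 fold change from RB 2 h 0.81 ± 0.16, adjusted p = 0.00139). LBD41 had 196, 174 and 175 CPM in RBH and 37.3, 45.8 and 41.7 CPM in RB 2 h, where it lay within or next to the water range (log2 fold change from RB 2 h 2.11 ± 0.24, adjusted p = 1.35e-06). Core hypoxia genes were higher than in RB 2 h in 5 of 17 cases and lower in 1, or in 2 without RBH replicate a or RB 2 h replicate a.

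Wall genes differed in both directions from the dye alone. Of 26 class III peroxidases, 9 were lower in RBH than in RB 2 h and 2 higher, or 1 higher without RBH replicate b or RB 2 h replicate c. AT1G49570 had 49.1, 50.4 and 25.9 CPM in RBH, 175, 293 and 411 CPM in RB 2 h and 255, 193 and 205 CPM in water (log2 fold change from RB 2 h -2.87 ± 0.31, adjusted p = 1.81e-06). XTH31 had 139, 230 and 132 CPM in RBH, 22.2, 19.0 and 21.0 CPM in RB 2 h and 286, 279 and 318 CPM in water (log2 fold change from RB 2 h 3.01 ± 0.26, adjusted p = 2.43e-08). PME2 had 2.30, 1.29 and 1.23 CPM in RBH and 16.1, 19.0 and 30.7 CPM in RB 2 h (log2 fold change -3.93 ± 0.37, adjusted p = 1.43e-07), and LRL3 had 3.07, 3.88 and 0.705 CPM in RBH and 16.1, 19.5 and 14.96 CPM in RB 2 h (log2 fold change -3.18 ± 0.46, adjusted p = 3.22e-05). Among 16 root hair genes 1 was called lower than in RB 2 h, EXPA7, against 6.97% of all genes. That call was lost without RBH replicate c (adjusted p = 0.0524), while 5 were called without RBH replicate b and 2 without RBH replicate a. NRT2:1 was near 0 in both, at 0.767, 0.646 and 0.176 CPM in RBH and 1.01, 0 and 0.404 CPM in RB 2 h.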

How the data were processed

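Roots were profiled by MARS-seq, which counts the 3′ ends of transcripts, per the labels. The authors deposited whole-number read counts per gene and library, made with bcl2fastq, cutadapt, STAR 2.4.2a and HTSeq and compared with DESeq2, per the submitters' processing notes. No label states the build, the annotation, the strand setting or a collapse of molecular identifiers, so reference tables served for names only (14356 of 14391 loci matched) and neither coordinates nor sequences are given. The deposited log2 fold change runs water over RBH, and the deposited p-value and the authors' yes or no mark, a value of another kind, were read only for the counts credited to them. A further 30 columns, which hold normalized or transformed values of the libraries, were not used.

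Counts of all 15 libraries (3 in each of 5 groups) were fitted with edgeR 4.0.16 in R 4.3.3 with limma 3.58.1: filterByExpr left 9891 genes, TMM scaling set library sizes, and a robust quasi-likelihood fit with a coefficient per group had 10 residual degrees of freedom. A gene was called where its two-sided p, adjusted by Benjamini-Hochberg over all genes tested, was under 0.05. SE was taken as |log2 fold change| divided by the root of F. The common dispersion of 0.0425 corresponds to 20.6% variation between replicates. The script was tested on simulated data. Lists (53, of 895 loci) are described by counts and medians with no test of the list. Intervals of count ratios are exact binomial and floors use 3 counts over the group, and both cover counting error only.

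The members, lists and comparisons were chosen with earlier results of these data known. Genes named are the 10 highest and 10 lowest log2 fold changes among called genes that carry a symbol, average 10 or more counts and have ranges that do not overlap, the 5 most abundant called genes in each direction, up to 4 members of each list by p against water and up to 2 called against RB 2 h, the 5 highest and 5 lowest against RB 2 h, and members of lists of 13 or fewer. Replicates are biological, per the labels, each a pool of seedlings. Same-lettered RBH and water replicates deviated together weakly (r = 0.127, 0.0176 and 0.199 for a, b and c over genes), so the letters were not taken as pairs. Replicates of unlike letters had r from -0.157 to 0.0269. Alternatives were DESeq2 1.42.0 as scaling or as test, library totals, no filter, only the libraries compared, a replicate block, thinning to the smallest library, leaving out organelle genes, 2 libraries of the dye groups or each replicate, and a test against a 1.5-fold change.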

Additional observations from a re-analysis of the deposited data

How the results depend on the processing

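Between RBH and water, 2671 genes were called, and no gene called in both settings changed sign under any alternative. The test against a 1.5-fold change called 1458 (835 higher, 623 lower). With 1 replicate left out the total ran from 2133 to 2615, with 1154 to 1389 higher and 933 to 1226 lower. Between RBH and RB 2 h, library totals alone gave 1238 lower genes, the fit of only the 6 libraries compared gave 1067 calls, 399 of them lower, and thinning to the smallest library gave 642 higher genes. With 1 replicate left out the total ran from 1077 to 1952, with 661 to 1128 higher and 416 to 824 lower. Without RB 1 h replicate b and RB 2 h replicate a, libraries that earlier results put apart, it was 2235, of which 962 were lower. The causes were not tested. A replicate block by letter, though the letters were not taken as pairs, gave 2456 calls between RBH and water (1319 higher, 1137 lower). Between RBH and RB 2 h it gave 1434 calls (862 higher). RBH replicates a and c deviated most like the water replicates of their own letter (r = 0.127 and 0.199). RBH replicate b had r = 0.0269 with water replicate a and 0.0176 with its own letter.

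Of 204 named genes called between RBH and water, 182 kept the call under every alternative in which they were tested. Of 92 called between RBH and RB 2 h, 70 did, with 0 reversals. The test against a 1.5-fold change was not part of this tally. Depth limits the low genes: at 1 count of 0.570 to 1.19 CPM in water, a gene absent there is known only to lie under its floor. Treatment and time in solution cannot be told apart in the comparison with water.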

Other observations

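The genes given here were chosen after their values were seen, because libraries of a single group lay far apart. AT5G54865 had 3889, 0 and 89.0 CPM in RBH, against 1.19, 58.3 and 108 CPM in water (adjusted p = 0.191 by edgeR). AT3G43850 had 33.0, 1624 and 43.9 CPM in RBH, 252, 0.487 and 840 CPM in RB 2 h, and 911, 1268 and 2.28 CPM in water (adjusted p = 0.939 between RBH and water by edgeR). In both genes the spread within a group exceeded the difference between the group means, and its origin was not tested.

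CAB3, a light-harvesting protein of green tissue, was called higher in RBH, with 8.43, 24.5 and 58.7 CPM in RBH and 5.97, 3.74 and 5.70 CPM in water (log2 fold change 2.67 ± 0.59, adjusted p = 0.00198 by edgeR). It was the single call toward higher levels among 14 green tissue markers tested, of which 1 was called lower and 12 were not called. The higher calls were 3 without RBH replicate a and 2 without water replicate b. RBH replicate c held the most CAB3. The part of shoot RNA in this difference was not tested.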
